A study of Mus musculus with 24 samples.

Results

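The E2F transcription factors and the retinoblastoma proteins that bind them were followed across 24 mouse RNA-seq libraries by 10 genes. These are E2f1, E2f2, E2f3, E2f4, E2f5, E2f6, E2f7, E2f8, Rb1 and Rbl1, taken by gene symbol from a deposited table of read counts for 23283 genes. All 10 symbols were present. The study compared cells of different cycling speed in Yamanaka reprogramming, the conversion of somatic cells into pluripotent cells by Oct4, Sox2, Klf4 and Myc.

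The 6 groups were as follows. Bulk mouse embryonic fibroblasts (MEF, 4 libraries) were untreated, grown in DMEM with fetal bovine serum and labelled as slow cycling and unsorted, although the protocol shared by all libraries describes sorting 1000 cells into each well. Slow MEF and fast MEF (4 libraries each) came from cultures given doxycycline for 6 days in embryonic stem cell medium with LIF, and were sorted after 48 hours by CFSE, a dye whose signal drops with every division. Induced pluripotent stem cells (iPS, 4 libraries) were positive for an Oct4:GFP reporter, independent of the factors, kept in the same medium without doxycycline and labelled fast cycling. Granulocyte monocyte progenitors (GMP) were cultured with cytokines that included SCF, IL3 and Flt3L and sorted after 24 hours of CFSE dilution into slow GMP (3 libraries) and fast GMP (5 libraries). The sources used here give neither the strain, nor the allele that carries the inducible factors, nor the age of the animals, nor the number of iPS lines. The labels also do not say whether replicates are separate cultures or animals, so a p-value here reflects library-to-library spread alone, and that spread may be technical.

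E2F proteins bind DNA at the promoters of genes for DNA replication and mitosis, most of them as dimers with a DP partner (Tfdp1 or Tfdp2). E2F1, E2F2 and E2F3 are known mainly as activators, E2F4 and E2F5 as repressors that act with the pocket proteins p107 (Rbl1) and p130 (Rbl2), and E2F6 as a repressor in a Polycomb complex that needs no pocket protein. E2F7 and E2F8 bind DNA without a DP partner and repress targets late in the cycle. RB, the product of Rb1, holds activator E2Fs inactive until cyclin-dependent kinases phosphorylate it at the passage from G1 into S phase, and several E2f genes and Rbl1 are themselves textbook targets of E2F.

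Because several members are known to be controlled through E2F sites and through the cell cycle homology region (CHR), an element of genes expressed late in the cycle, promoters of the members were searched for such letters, and 4 are printed as examples. Rbl1, E2f7 and E2f8 were called in comparisons below and hold a match before their only listed start, and E2f3, which was called in none, holds both kinds of match close to its start. RefSeq (build GRCm38.p6) listed a promoter for 7 of the 10 members, E2f1, E2f2, E2f3, E2f6, E2f7, E2f8 and Rbl1, with 9 starts in all. Each promoter was read from 250 bases before to 50 bases after the start. Both strands were searched for the E2F letters TTTCCCGC, TTTCGCGC, TTTGCCGC and TTTGGCGC and for the CHR letters TTTGAA, and no match overlapped another. The 250 bases before the start are printed 5′ to 3′ on the gene's strand, with the matched letters in capitals.
Rbl1: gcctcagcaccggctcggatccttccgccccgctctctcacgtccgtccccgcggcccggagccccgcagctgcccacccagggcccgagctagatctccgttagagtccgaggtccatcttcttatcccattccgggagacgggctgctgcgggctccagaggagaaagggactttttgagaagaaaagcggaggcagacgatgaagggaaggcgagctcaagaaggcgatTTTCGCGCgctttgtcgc
E2f3: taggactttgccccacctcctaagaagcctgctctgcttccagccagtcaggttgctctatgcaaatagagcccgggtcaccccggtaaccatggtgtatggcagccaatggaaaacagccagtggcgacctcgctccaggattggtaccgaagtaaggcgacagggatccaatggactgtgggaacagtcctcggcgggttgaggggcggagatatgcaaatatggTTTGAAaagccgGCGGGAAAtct
E2f7: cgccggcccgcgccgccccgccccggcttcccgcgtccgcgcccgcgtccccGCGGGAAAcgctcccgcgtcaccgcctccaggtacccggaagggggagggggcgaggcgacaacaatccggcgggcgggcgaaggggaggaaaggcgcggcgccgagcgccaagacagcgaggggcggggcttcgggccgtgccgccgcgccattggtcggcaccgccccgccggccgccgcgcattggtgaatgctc
E2f8: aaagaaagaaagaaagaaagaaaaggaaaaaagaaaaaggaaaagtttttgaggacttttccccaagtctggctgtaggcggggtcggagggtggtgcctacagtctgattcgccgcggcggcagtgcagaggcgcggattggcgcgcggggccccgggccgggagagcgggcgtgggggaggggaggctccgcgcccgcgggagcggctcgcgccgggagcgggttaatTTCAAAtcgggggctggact
The Rbl1 stretch lies at chr2:157204535-157204784 on the minus strand, and its match, TTTCGCGC, begins 18 bases before the start. The E2f3 stretch lies at chr13:29986064-29986313 on the minus strand. It holds TTTGAA beginning 23 bases before the start and TTTCCCGC, read on the opposite strand, at 11 bases before it. The E2f7 stretch lies at chr10:110745189-110745438 on the plus strand, with TTTCCCGC read on the opposite strand at 198 bases before the start. The E2f8 stretch lies at chr7:48881597-48881846 on the minus strand, with TTTGAA read on the opposite strand at 20 bases before the start.

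E2f2 held TTTGGCGC at 40 bases after its first listed start and TTTGAA at 31 bases before the second. The second E2f2 window opens with letters that read as code for the E2F2 protein. It thus lies inside the gene, and its TTTGAA may not be in a promoter. No match of either kind was found in the listed windows of E2f1 and E2f6 or at the second start of E2f3. The letters before the listed E2f1 start read as code for the E2F1 protein, so that window lies inside the gene. Any E2f1 promoter further upstream was not searched. Thus 4 of the 9 windows held an E2F match, and such a match was found in 2.26% of all 32851 RefSeq promoters of the same length. Those promoters were not matched for their share of G and C letters, which was 54.7% to 78.7% in the 9 windows. TTTGAA was found in 3 of the 9 windows, the second of E2f2 among them, and in 17.9% of all promoters. A match describes the letters only, and no binding was measured.

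Library totals were 2098846 to 4411526 counts for GMP, while the MEF and iPS libraries had 4937453 to 18648132. Rn45s and Lars2, which collect ribosomal RNA reads, took 19.9% to 48.9% of the counts in GMP libraries and 3.05% to 11.7% elsewhere. The labelled cell types were checked against marker lists summed in CPM (counts scaled to library size by TMM factors over the 24 libraries). The 8 fibroblast markers, such as collagen genes, summed to a median of 30000 CPM in bulk MEF and 66200 CPM in slow MEF but to 2030 CPM in fast MEF, so the fast gate of the MEF cultures had lost most of that signal. The same libraries of fast MEF held 4 keratin genes of keratinocytes at a median sum of 12300 CPM, against 271 CPM in slow MEF and 2.1 CPM in bulk MEF. The 10 pluripotency markers were all detected in iPS, at a median sum of 3310 CPM, and the 7 myeloid markers in the file were all detected in both GMP gates, at 11400 CPM (slow) and 21300 CPM (fast). In RNA of whole populations, fewer cells of a type and less RNA per cell cannot be told apart.

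**Figure D1:**
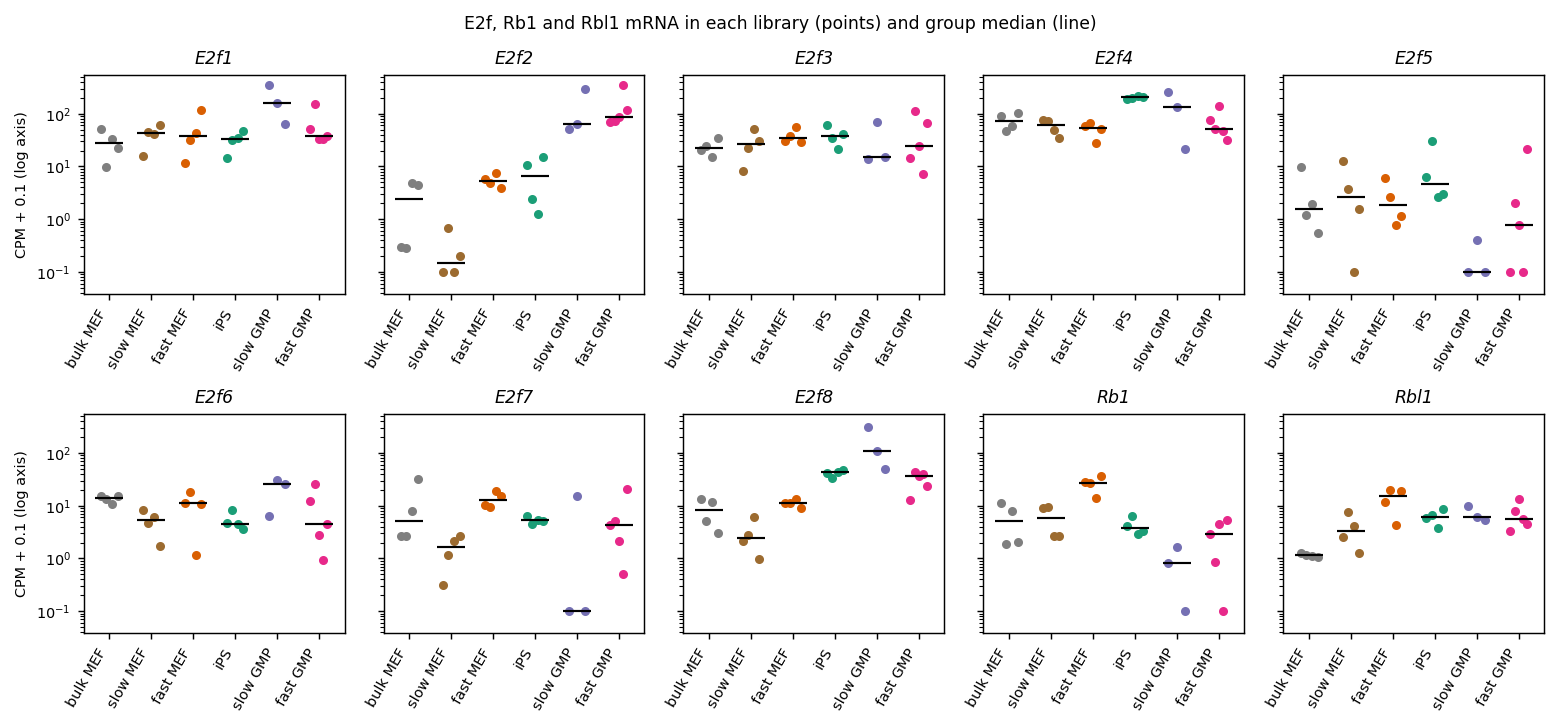
CPM of each member in every library (points, vertical log axis of CPM plus 0.1) with the group median as a line, for the 6 groups. E2f4 has its highest group median in iPS (189 to 213 CPM), Rb1 in fast MEF (13.8 to 36.9 CPM), and E2f2 its 8 highest values in the GMP libraries (50.2 to 350 CPM).

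Levels of different genes were compared per kilobase of exon (GENCODE M21 gene models), as the median CPM per kilobase of a group. E2f4 had the highest such level of the 10 genes in all 6 groups, from 26.2 in fast GMP to 103 in iPS. The next member was E2f1 in bulk MEF (8.71), slow MEF (13.6), fast MEF (11.9) and slow GMP (51.4), E2f8 in iPS (11.1) and E2f2 in fast GMP (18.5). Rbl1 was the lowest member in bulk MEF (0.215), E2f2 in slow MEF (0.0101), E2f5 in fast MEF (0.996) and E2f7 in iPS (0.661). In slow GMP the medians of E2f5 and E2f7 were both 0. The first place of E2f4 in GMP depends on the division by length. In plain CPM its median was 134 in slow GMP, below E2f1 (162), and 52.3 in fast GMP, below E2f2 (87.5). Whether reads scale with exon length in these libraries, primed with oligo-dT, was not tested. For each gene the 6 group means of CPM were also put in order and the 50 pairs of neighbours compared by an exact two-sided permutation test of log2 CPM, in which 4 libraries against 4 cannot go below p = 0.0286. The smallest exact p was 0.0238 (0.357 after Benjamini-Hochberg adjustment over the 50 pairs). With so few libraries and 50 pairs, a missed threshold does not show that neighbours were alike. The libraries of 4 pairs did not overlap at all. These were Rb1 in slow and fast MEF, E2f2 in iPS and slow GMP, E2f8 in iPS and slow GMP (exact p = 0.0286 each) and E2f5 in slow GMP and fast MEF (exact p = 0.0571). In all other pairs the libraries overlapped. The share of such pairs over all genes was not computed, so 4 of 50 cannot be read as particular to these members.

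Comparisons of groups used edgeR's quasi-likelihood test on the counts of the groups compared, with Benjamini-Hochberg adjustment over all genes tested and a threshold of 0.05. Fold changes are log2 values with their standard error (SE). Fast MEF against slow MEF tests the gates of the induced culture, and 3 of the 10 members were called there, all higher in fast MEF (E2f2, E2f7 and Rb1). Of the 11742 genes tested, 14.4% were called higher and 17.3% lower. Between the untreated fibroblasts and the pluripotent end point, iPS against bulk MEF, 4 of 10 members were called, with E2f4, E2f8 and Rbl1 higher and E2f6 lower in iPS. The background there was 24.1% called higher and 23.3% lower. Against that background, neither count of members stood far from the share of all genes called.

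E2f1 is the founding member of the activators and drives entry into S phase. Its level was 51.1, 9.85, 33.1 and 21.8 CPM in the bulk MEF libraries, 15.9, 45.2, 40.6 and 60.7 in slow MEF, 11.3, 31.5, 43.3 and 117 in fast MEF and 14.5, 32, 34.3 and 47.6 in iPS. The ranges of these 4 groups overlapped throughout. E2f1 was not called in fast against slow MEF (log2 fold change 0.18 ± 0.64 (SE), edgeR adjusted p = 0.854) or in iPS against bulk MEF (0.11 ± 0.53, edgeR adjusted p = 0.881). The order of its group means was bulk MEF (29.0 ± 17.5 CPM, SD, n = 4), iPS (32.1 ± 13.6), slow MEF (40.6 ± 18.6), fast MEF (50.9 ± 46.2), fast GMP (61.2 ± 50.8, n = 5) and slow GMP (195 ± 150, n = 3).

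E2f2, an activator best known from blood cells, had the largest log2 fold change of the members between the MEF gates. The slow MEF libraries held 0, 7, 0 and 1 counts of it, or 0, 0.567, 0 and 0.0961 CPM. The fast MEF libraries held 5.72, 4.65, 7.25 and 3.86 CPM. All 4 fast libraries were thus above all 4 slow ones. The difference was called, with a log2 fold change of 4.69 ± 1.12 (SE, edgeR adjusted p = 0.00943). It rests on 8 slow MEF counts, and without slow MEF replicate 2, which holds 7 of them, the log2 fold change was 6.72. Bulk MEF divided into 2 libraries near 0.2 CPM (0.193 and 0.181) and 2 near 5 (4.83 and 4.38), of which the latter lie within the fast MEF range. Fast MEF against bulk MEF was not called (log2 fold change 1.09 ± 0.99, edgeR adjusted p = 0.424). The iPS libraries ranged from 1.14 to 14.9 CPM and overlapped with fast MEF.

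E2f3, the third activator, had group means of 23.4 ± 7.89 CPM in bulk MEF, 28.0 ± 17.7 in slow MEF, 38.3 ± 12.8 in fast MEF and 39.5 ± 17.1 in iPS (SD, n = 4 each). All 6 groups overlapped with their neighbours in the order. Its log2 fold changes between the MEF and iPS groups lay between 0.02 and 0.73, and none was called.

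E2f4, a mainly repressive E2F that works with p107 and p130, was 189, 202, 213 and 209 CPM in the iPS libraries. Bulk MEF held 89.6, 47.4, 57.3 and 104 CPM, slow MEF 76.4, 71.4, 49 and 35.1, and fast MEF 58, 66.7, 27.5 and 50.3. Every iPS library was thus above every library of the fibroblast groups. E2f4 was called higher in iPS than in bulk MEF (log2 fold change 1.42 ± 0.29, edgeR adjusted p = 0.00276) and than in fast MEF (2.01 ± 0.26, edgeR adjusted p = 0.000314). It was not called between the MEF gates (-0.36 ± 0.36, edgeR adjusted p = 0.486). The slow GMP libraries, at 255, 134 and 21.7 CPM, lay on both sides of the iPS level.

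E2f5, the relative of E2f4, was low and uneven. Its group means were 3.29 ± 4.4 CPM in bulk MEF, 4.38 ± 5.58 in slow MEF, 2.51 ± 2.33 in fast MEF and 10.4 ± 13.3 in iPS (SD, n = 4 each). In each of these groups replicate 1 or, in iPS, replicate 2 held most of the signal. No comparison called it. In iPS against bulk MEF its log2 fold change was 1.61 ± 1.09 (edgeR adjusted p = 0.248), and without bulk MEF replicate 1 it was 3.15 (adjusted p = 0.0433). Its exons share bases with 1810022K09Rik on the opposite strand in GENCODE M21, and whether the counting used strand is unknown here.

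E2f6, the Polycomb-associated repressor, was 15.5, 13.2, 10.9 and 15.2 CPM in bulk MEF and 4.55, 8.14, 4.32 and 3.52 CPM in iPS. The groups did not overlap, and E2f6 was called lower in iPS (log2 fold change -1.45 ± 0.45, edgeR adjusted p = 0.0228). The call was lost without iPS replicate 3 (adjusted p = 0.0503) or 4 (adjusted p = 0.0622). Slow MEF held 8.34, 4.54, 6.12 and 1.63 CPM, all below bulk MEF, but the log2 fold change of -1.38 ± 0.57 was not called (edgeR adjusted p = 0.149). Fast MEF spread from 1.04 to 18.5 CPM and overlapped with all of these groups.

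E2f7, a repressor that lacks a DP partner, was 0.211, 1.05, 2 and 2.6 CPM in slow MEF and 10.3, 9.22, 19.2 and 14.9 CPM in fast MEF. The lowest fast library was thus above the highest slow one. It was called higher in fast MEF, with a log2 fold change of 3.07 ± 0.74 (edgeR adjusted p = 0.0104). In bulk MEF the 4 values of 2.51, 2.53, 7.75 and 31.8 CPM covered the whole fast MEF range. Slow MEF against bulk MEF gave a log2 fold change of -2.88 ± 1 that was not called (edgeR adjusted p = 0.0926). The iPS libraries held 4.42 to 6.21 CPM, all below fast MEF and above slow MEF. Against fast MEF the log2 fold change in iPS was -1.38 ± 0.44 (edgeR adjusted p = 0.0318), a call that was lost with the replicate number as a block (adjusted p = 0.0815), without the filter on low counts (adjusted p = 0.0724) and without iPS replicate 2 (adjusted p = 0.0764), 3 (0.0648) or 4 (0.0657) or fast MEF replicate 3 (0.0662) or 4 (0.0701).

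E2f8, the partner of E2f7 in repressing E2F targets, rose in iPS. Its libraries held 42, 34, 44.3 and 46.8 CPM in iPS against 13.6, 4.97, 11.7 and 2.96 CPM in bulk MEF and 11.4, 11.2, 13.6 and 9 CPM in fast MEF. Every iPS library was above all of these. The log2 fold change was 2.28 ± 0.51 against bulk MEF (edgeR adjusted p = 0.00455) and 1.87 ± 0.31 against fast MEF (edgeR adjusted p = 0.00118). Slow MEF held 2, 2.67, 6.12 and 0.865 CPM, all below fast MEF. That difference between the gates just missed the threshold (log2 fold change 1.82 ± 0.65, edgeR adjusted p = 0.0555) and passed it with DESeq2 (1.9, adjusted p = 0.00881) and with the other alternatives given in the closing section. Its exons share bases with Gm2788 on the opposite strand in GENCODE M21. In the main fit E2f7 and E2f8 thus took different courses from fast MEF to iPS, one lower and the other higher, each by its own test. The E2f7 call was lost under several alternatives, and both calls were lost with all 24 libraries in 1 fit.

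**Figure D2:**
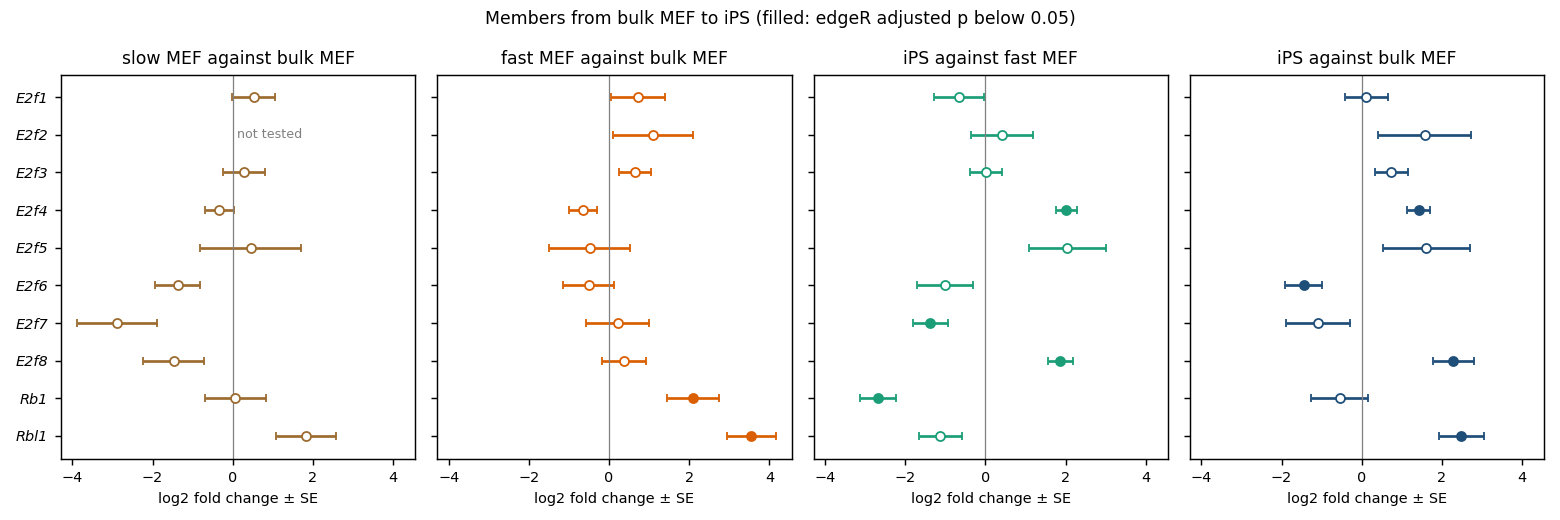
Log2 fold change (horizontal axis, ± SE) of each member in 4 comparisons, with filled points where the edgeR adjusted p was under 0.05. Filled points stand for Rb1 and Rbl1 in fast MEF against bulk MEF, for E2f4, E2f7, E2f8 and Rb1 in iPS against fast MEF, for E2f4, E2f6, E2f8 and Rbl1 in iPS against bulk MEF, and for no member in slow MEF against bulk MEF.

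Rb1 encodes RB, the pocket protein that binds activator E2Fs. It was 27.9, 26.8, 13.8 and 36.9 CPM in fast MEF. The slow MEF libraries held 9.07, 9.32, 2.62 and 2.6 CPM, the bulk MEF libraries 11.3, 1.81, 7.95 and 1.97, and the iPS libraries 4.09, 6.19, 2.78 and 3.2. Each fast MEF library was above every library of the other 5 groups. Rb1 was called higher in fast than in slow MEF (log2 fold change 1.99 ± 0.57, edgeR adjusted p = 0.0221) and than in bulk MEF (2.09 ± 0.65, edgeR adjusted p = 0.0287), and lower in iPS than in fast MEF (-2.69 ± 0.45, edgeR adjusted p = 0.00127). Its level in iPS against bulk MEF was not called (-0.55 ± 0.71, edgeR adjusted p = 0.55). The first call was lost without slow MEF replicate 3 (adjusted p = 0.0517) or fast MEF replicate 1 (0.0511) or 4 (0.0661), and the second without bulk MEF replicate 2 (0.0553) or 4 (0.0599) or fast MEF replicate 1 (0.0566), 2 (0.0502) or 4 (0.072). Exons of Rb1 share bases with Rcbtb2 on the opposite strand in GENCODE M21. Rcbtb2 was lower where Rb1 was called higher, with 3.2 ± 2.03 CPM in fast MEF, 24.1 ± 4.41 in slow MEF, 15.3 ± 6.41 in bulk MEF and 30.7 ± 14.0 in iPS (SD, n = 4 each). Over all 6 groups the orders were not opposite, since slow GMP had the lowest mean of both genes.

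Rbl1 encodes p107, a pocket protein that binds E2F4 and is itself made in cycling cells. In bulk MEF its libraries agreed closely at 1.16, 1.08, 1.01 and 0.986 CPM, each from 9 to 12 counts. Slow MEF held 2.43, 7.37, 4 and 1.15 CPM, fast MEF 11.5, 19.9, 4.14 and 18.6, and iPS 5.76, 6.46, 3.62 and 8.57. All fast MEF and all iPS libraries were above bulk MEF. Rbl1 was called higher in fast MEF (log2 fold change 3.55 ± 0.6, edgeR adjusted p = 0.00128) and in iPS (2.48 ± 0.56, edgeR adjusted p = 0.0046), each against bulk MEF. Slow against bulk MEF (1.83 ± 0.75, edgeR adjusted p = 0.147) and fast against slow MEF (1.68 ± 0.7, edgeR adjusted p = 0.0914) were not called, and the latter passed without fast MEF replicate 3 (2.04, adjusted p = 0.038), the fast library with the lowest Rbl1. Rbl1 was also not called in iPS against fast MEF (-1.13 ± 0.54, edgeR adjusted p = 0.124).

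Slow MEF and fast MEF each differ from bulk MEF in induction, medium, dye and gate at once, and these cannot be told apart. Of 9 members tested in slow MEF against bulk MEF none was called, against 5.51% of 11253 genes called higher and 4.99% lower. By that test E2f6 and Rbl1 had an unadjusted p under 0.05 (0.0321 and 0.0315), as did E2f7 (0.0141), which DESeq2 called (-2.9, adjusted p = 0.016). Of the 11253 genes tested, 2953 had an unadjusted p under 0.05, so these members do not stand out by it. E2f2 was not tested there because of its low counts. In fast MEF against bulk MEF 2 of 10 members were called, both pocket protein genes and both higher, while 16.5% of 11335 genes were called higher and 18.4% lower. The comparison of the cells labelled fast, iPS against fast MEF, called 4 of 10, with E2f4 and E2f8 higher and E2f7 and Rb1 lower in iPS, and 18.8% of 11882 genes were called higher and 19.7% lower. The comparisons with bulk MEF share its 4 libraries, and those with fast MEF share that group's 4. Beside these changes, the summed fibroblast markers lay between 1960 and 4900 CPM in fast MEF and between 41300 and 80200 CPM in slow MEF, with all 8 detected in both. The keratinocyte sum lay between 7750 and 12900 CPM in fast and between 48.6 and 844 CPM in slow MEF, with 3 of 4 genes at 1 CPM or more in some library of each gate. The sums of some other marker lists were higher in the fast gate too. The 10 pluripotency markers summed to 257 to 517 CPM in fast and 9.71 to 21.1 CPM in slow MEF, and the 5 mast cell and basophil markers to 330 to 390 and 6.22 to 33.7 CPM. Of the latter, only 2 of 5 reached 1 CPM in any library of fast MEF, and 2 in slow MEF, so that sum does not describe the list as a whole. Cpa3 was at 0 in fast MEF and Prss34 and Fcer1a in slow MEF. The pluripotency list includes Pou5f1 (Oct4) and Sox2, which are among the reprogramming factors. Reads of their induced and native copies were not told apart. The 4 endothelial markers summed to 17.7 to 31.9 CPM in fast and 1.16 to 3.56 CPM in slow MEF, with Cdh5 at 0 in slow MEF. The part of this shift in cell type markers in the changes of E2f2, E2f7 and Rb1 was not tested.

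The partners of the family were measured beside it. Tfdp1, the DP partner of most E2Fs, was 90.5, 109, 99.8 and 71.4 CPM in iPS and 35.8, 47.6, 71.4 and 48.9 CPM in bulk MEF, so the groups met at 71.4 CPM. It was called higher in iPS (log2 fold change 0.82 ± 0.31, edgeR adjusted p = 0.0471). Tfdp2 was called higher in iPS than in fast MEF (2.12 ± 0.57, edgeR adjusted p = 0.0153), with iPS at 12.6 to 27.1 CPM and fast MEF at 1.04 to 7.88 CPM. Rbl2, the gene of the quiescence-associated pocket protein p130, went the other way from Rbl1 between bulk MEF and iPS. It was 0.961 to 1.59 CPM in iPS and 2.08 to 8.4 CPM in bulk MEF and was called lower (-2 ± 0.61, edgeR adjusted p = 0.0212). In slow MEF it was 7.7 to 11.7 CPM, above all fast MEF libraries (3.7 to 5.73 CPM), a difference that was not called.

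The genes upstream and downstream of the family were followed by 9 further lists, given here by counts. Of all genes tested, 14.4% were called higher and 17.3% lower in fast against slow MEF, and 24.1% and 23.3% in iPS against bulk MEF. The same shares were 16.5% and 18.4% in fast against bulk MEF and 5.51% and 4.99% in slow against bulk MEF. In iPS against fast MEF they were 18.8% and 19.7%. In fast against slow MEF, 23 of 30 textbook E2F targets of S phase were called higher and none lower, with a median log2 fold change of 2.25 where the median of all genes tested was -0.11. Mcm5, a subunit of the replicative helicase, rose by a log2 fold change of 3.81 ± 0.36 (edgeR adjusted p = 6.84e-05) and Pcna, the sliding clamp of DNA polymerases, by 2.48 ± 0.25 (edgeR adjusted p = 0.000103). Of 18 targets of E2F and of the MuvB complex in G2 and mitosis 17 were called higher, among them Top2a, which untangles chromosomes, at 2.18 ± 0.25 (edgeR adjusted p = 0.000192) and Cdc20, an activator of the anaphase-promoting complex, at 3.18 ± 0.38 (edgeR adjusted p = 0.000225). The cyclin-dependent kinase inhibitors upstream of RB fell, 5 of 6 tested. Cdkn1c (p57) fell by 5.36 on the log2 scale (edgeR adjusted p = 0.000224) and Cdkn2b (p15) by 3.59 (edgeR adjusted p = 0.00047). Among G1 cyclins and kinases 3 of 9 rose and 1 fell, with Ccnd1 (cyclin D1) at 2.62 ± 0.3 (edgeR adjusted p = 0.000173) and Ccnd2 (cyclin D2) at -2.25 ± 0.2 (edgeR adjusted p = 4.72e-05).

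Mybl2 (B-Myb), the partner of MuvB, led its list of 8, of which 3 of 7 tested were called higher. It was 0.481 to 13 CPM in slow MEF, 138 to 299 CPM in fast MEF and 1390 to 1740 CPM in iPS. Its log2 fold change was 4.7 ± 0.84 in fast against slow MEF (edgeR adjusted p = 0.00224) and 3.01 ± 0.27 in iPS against fast MEF (edgeR adjusted p = 3.95e-05). These 3 ranges did not overlap. Among modulators of the RB family, 3 of 7 rose in fast against slow MEF and 1 fell, beside 14.4% and 17.3% of all genes. Skp2, the F-box protein that marks p27 for degradation, had a log2 fold change of 1.57 ± 0.46 (edgeR adjusted p = 0.0237) and Mdm2, which binds p53, of -1.25 ± 0.33 (edgeR adjusted p = 0.0162).

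In iPS against bulk MEF 27 of 30 S phase targets and 18 of 18 genes of G2 and mitosis were called higher, with medians of 2.96 and 3.23 where all genes had 0.10. Gins1, of the replicative helicase, had a log2 fold change of 5.32 ± 0.58 (edgeR adjusted p = 7.17e-05), from 15 counts over the bulk MEF libraries. Of the inhibitors 3 of 5 fell and none rose. Cdkn1a (p21) fell by 4.51 on the log2 scale (edgeR adjusted p = 1.74e-06). In fast MEF against bulk MEF 22 of 30 S phase targets and 14 of 18 genes of G2 and mitosis were higher and 4 of 6 inhibitors lower. In slow MEF against bulk MEF none of 28 S phase targets was higher and 2 were lower, Cdt1 (-3.4 ± 0.73, edgeR adjusted p = 0.0143) and Mcm5 (-1.72 ± 0.49, edgeR adjusted p = 0.0453), and of 18 genes of G2 and mitosis none was called. From fast MEF to iPS the S phase list had 17 of 30 higher and 1 lower (Ezh2), and the mitotic list 10 of 18 higher and 1 lower (Mki67).

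**Figure D3:**
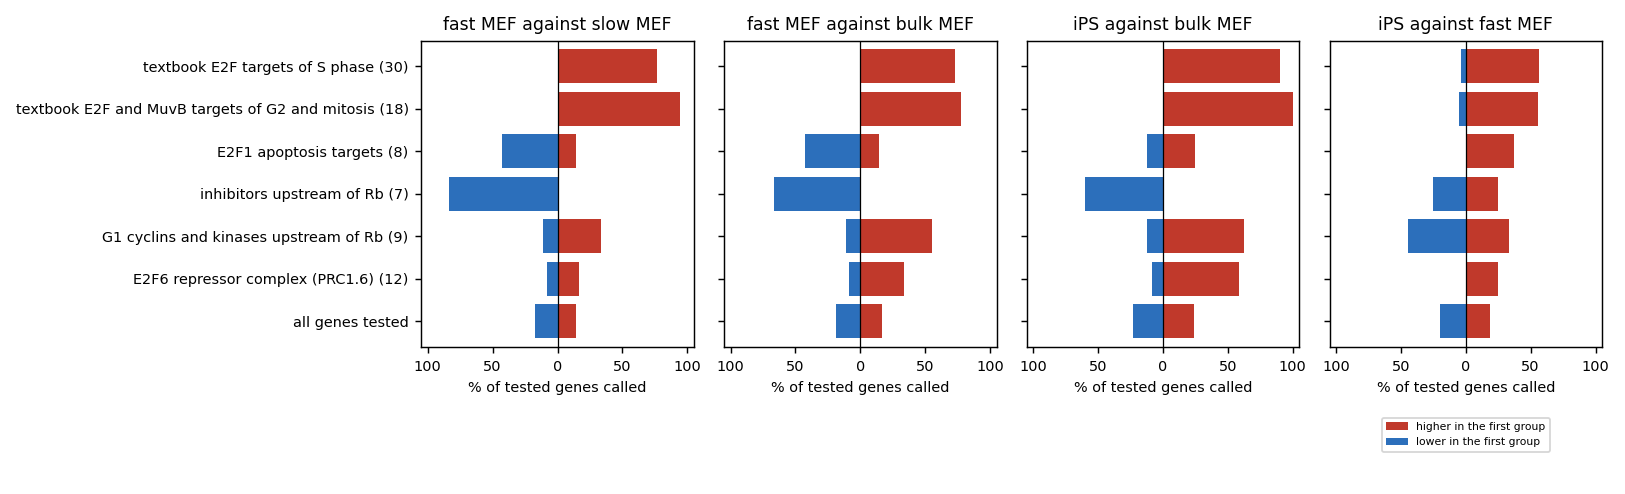
Share of tested genes of each list called higher (right) or lower (left) in 4 comparisons, in percent, with the number of genes in the list in parentheses and all genes tested at the bottom. Of the 6 lists plotted, those of S phase and of G2 and mitosis reach furthest to the right in each comparison shown, with 17 of 18 mitotic genes higher in fast against slow MEF, and the inhibitors reach furthest to the left in the first 3.

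Cyclin genes upstream of RB moved in both directions between fast MEF and iPS. Ccnd1 fell by 2.26 on the log2 scale (edgeR adjusted p = 0.000112) and Ccnd2 by 2.88 (edgeR adjusted p = 0.000251), while Ccne1 (cyclin E1) rose by 5.88 ± 0.64 (edgeR adjusted p = 0.000121) and Ccnd3 by 1.73 ± 0.18 (edgeR adjusted p = 8.42e-05). Ccne1 was 2.24 to 17.5 CPM in fast MEF and 271 to 685 CPM in iPS. In all, 3 of 9 genes of that list rose and 4 fell, where 18.8% of all genes were called higher and 19.7% lower.

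Of the 8 genes that E2F1 is known to induce in apoptosis, 7 were tested in fast against slow MEF, where 3 fell and 1 rose. Among all genes tested there, 17.3% were called lower and 14.4% higher. Bcl2l11 (Bim) was 24.6 to 53.8 CPM in slow MEF and 2.09 to 4.21 CPM in fast MEF (log2 fold change -4 ± 0.44, edgeR adjusted p = 0.000148). Bbc3 (Puma, -2.56 ± 0.71, edgeR adjusted p = 0.0193) and Pmaip1 (Noxa, -2.08 ± 0.66, edgeR adjusted p = 0.0352) fell as well, and Casp8ap2 rose (1.62 ± 0.46, edgeR adjusted p = 0.0204). Bcl2l11, Bbc3 and Pmaip1 are also known as targets of other factors, p53 and FOXO among them. In iPS, Bcl2l11 was 32.4 to 51.9 CPM and higher than in fast MEF (3.81 ± 0.38, edgeR adjusted p = 7.35e-05).

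For E2f6, the list of its Polycomb complex had 7 of 12 genes higher and 1 lower in iPS against bulk MEF. Among all genes tested there, 24.1% were called higher and 23.3% lower. E2f6 itself was lower in that comparison. L3mbtl2, a subunit that binds histones, had a log2 fold change of 4.2 ± 0.31 (edgeR adjusted p = 1.03e-05) and Yaf2 of -3.2 ± 0.78 (edgeR adjusted p = 0.00736). Germ cell genes known to be silenced through E2F6 were 5, of which 3 had enough counts to be tested, and all 3 were higher in iPS than in bulk MEF and in fast MEF. That filter was passed through the iPS libraries, where these genes are high. Tuba3a, a testis tubulin, had 2218 counts over the iPS libraries, 4 over bulk MEF and 0 over fast MEF, so that it was at least 591-fold higher in iPS than a floor of 3 counts over the fast MEF group. Smc1b, a meiotic cohesin, had 278 counts over iPS and 0 over fast MEF, at least 74.1-fold. Stag3, another meiotic cohesin, had a log2 fold change of 5.33 ± 0.85 against fast MEF (edgeR adjusted p = 0.00105). E2f6 itself was not called in iPS against fast MEF (-1 ± 0.7, edgeR adjusted p = 0.289). Of the fast MEF libraries, replicate 3 held 1.04 CPM of E2f6, from 6 counts, and the others 10.9 to 18.5 CPM. In slow MEF the mean of E2f6 was 5.16 CPM, against 5.13 CPM in iPS. The slow MEF libraries held 9 counts of Tuba3a, 4 of Smc1b and 58 of Stag3. A link between E2f6 and these genes was not tested.

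E2f2 in both GMP gates and E2f8 in slow GMP lay above every library of the MEF and iPS groups. E2f2 was 50.2, 63.6 and 294 CPM in slow GMP and 68.6, 72.9, 87.5, 350 and 118 CPM in fast GMP. No library of another group was above 14.9 CPM. E2f8 was 309, 108 and 49.1 CPM in slow GMP and 12.6, 43.9, 37, 40.6 and 23.6 in fast GMP, so that every slow library was above every fast one. E2f1 was 358, 162 and 63.3 CPM in slow GMP and 51.1, 151, 33.7, 33.1 and 36.9 in fast GMP, where replicate 2 overlapped with the slow gate. Rb1 was 0.727, 1.55 and 0 CPM in slow GMP, from 7 counts in all, and 0 to 5.16 CPM in fast GMP, from 32 counts.

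Fast against slow GMP called none of the 9 members tested, and 0% of 10057 genes were called higher and 0% lower by edgeR (742 genes had an unadjusted p under 0.05, and DESeq2 called 97 genes, none of them a member). The log2 fold change of E2f8 was -2.31 ± 0.87 (unadjusted p = 0.0197, edgeR adjusted p = 0.662) and that of E2f1 -1.68 ± 0.88 (edgeR adjusted p = 0.682). With SE from 0.87 to 1.77 on the log2 scale for the 9 members, differences of a few-fold were not detectable here. In this comparison no gene of any of the lists was called. Of 29 tested S phase targets the median log2 fold change was -0.16, and of 18 genes of G2 and mitosis 0.09, where all genes had 0.12. Rbl2 was 156 CPM in slow GMP replicate 1 and 0.93 and 0.945 CPM in the other slow GMP libraries.

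**Figure D4:**
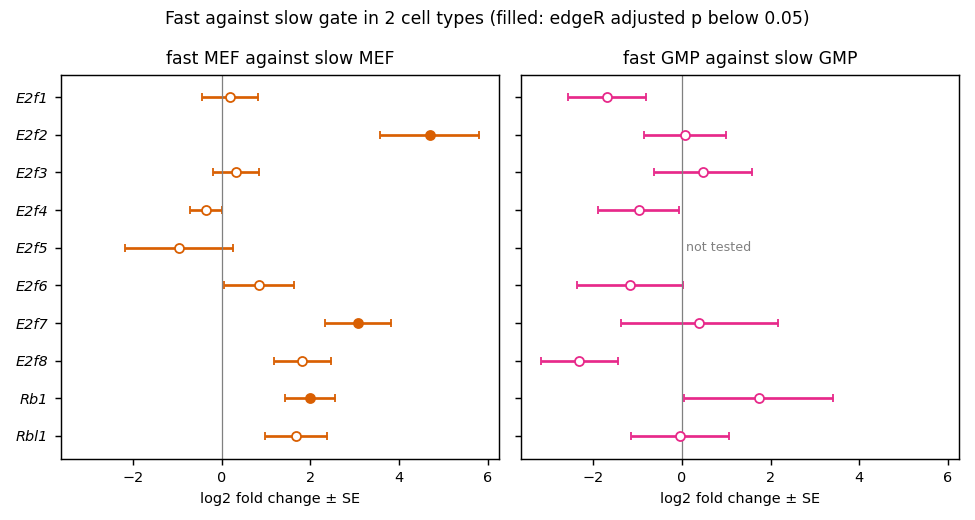
Log2 fold change (horizontal axis, ± SE) of each member between the fast and the slow gate in MEF (left) and in GMP (right), with filled points where the edgeR adjusted p was under 0.05. E2f2, E2f7 and Rb1 are filled in MEF and none in GMP, where E2f8 lies at -2.31 against 1.82 in MEF.

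The difference between both gate effects was tested as an interaction over the 16 gated libraries. It called none of the 10 members, with 0.796% of 13814 genes called higher and 0.601% lower. E2f8 had the smallest p, with an interaction of -4.14 ± 1.05 on the log2 scale (edgeR adjusted p = 0.0556), and E2f2 followed at -4.57 ± 1.29 (edgeR adjusted p = 0.0693). Both passed with DESeq2 (adjusted p = 0.000727 for E2f8 and 0.00468 for E2f2). The median of all genes was 0.33 on this scale and 0.48 with DESeq2 size factors, so that E2f8 and E2f2 lay lower still relative to it. One S phase target, Rrm2 of ribonucleotide reductase (-3.65 ± 0.81, edgeR adjusted p = 0.0305), one mitotic gene, Aurkb of the chromosomal passenger complex (-5.57 ± 1.08, edgeR adjusted p = 0.0147), and Ccnd2 (3.48 ± 0.81, edgeR adjusted p = 0.038) were called.

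Between the fast gates, fast GMP against fast MEF, 1 of 9 members was called, against 6.92% of 10639 genes called higher and 6.55% lower. This was E2f2, at a log2 fold change of 4.9 ± 0.76 (edgeR adjusted p = 0.00166), or 4.25 without fast GMP replicate 4, which held 350 CPM. Rb1 (-3.08 ± 1, edgeR adjusted p = 0.062) and E2f8 (1.7 ± 0.63, edgeR adjusted p = 0.0963) missed the threshold and passed it with DESeq2 (adjusted p = 0.00336 and 0.00264). Cell type, medium, induction and depth all differ between these groups and cannot be told apart. Ccnd1 was 3.05 to 11.4 CPM in fast GMP and 1060 to 1910 CPM in fast MEF (-7.48 ± 0.65, edgeR adjusted p = 5.72e-05).

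As a description of pattern, each member's log2 CPM was correlated with that of every other gene over the 24 libraries, which share depth and group structure. The genes most like E2f2 were Plcg2 (Pearson r = 0.903), Fmnl1 (0.891) and Myo1g (0.883). Those most like E2f8 were Tuba1b (0.86), Mat2a (0.857) and G3bp1 (0.854). Those most like Rb1 were Mllt4 (0.842), Zfp111 (0.837) and Ipo7 (0.819), and those most like Rbl1 were Hnrnpa2b1 (0.841), Usp1 (0.833) and Nup210 (0.827). For E2f4 they included 9430038I01Rik (0.822) and Hsd17b10 (0.81). They were for E2f7 Coro1c (0.787), Foxred1 (0.766) and Tmco4 (0.761), and for E2f6 Sh2d1b1 (0.775), Bzw1 (0.769) and Erlin1 (0.696). E2f1, E2f3 and E2f5 had no gene above 0.735.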

How the data were processed

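Cytosolic RNA of 24 mouse libraries was sequenced, from an oligo-dT primer after amplification per the labels' protocols. The deposited table holds the authors' raw counts of reads for each gene symbol, as whole numbers without normalization. Tools named in the submitters' processing notes are TopHat2 2.0.4, HTSeq and CASAVA 1.8.2, with the build mm9. The sources used here give neither the annotation nor the strand setting, so reads of a gene and its antisense partner cannot be told apart.

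Groups came from the sample labels and comparisons from the design. The test was the robust quasi-likelihood F test of edgeR 4.0.16 with TMM factors and filterByExpr, in R 4.3.3, two-sided, with Benjamini-Hochberg adjustment over all genes tested and a threshold of 0.05. Only the groups compared entered a fit. The SE of a log2 fold change is its size divided by the square root of F. Levels are CPM with TMM factors over all 24 libraries, and log2 CPM used a prior count of 2. Counts per library were 2098846 to 18648132, which sets the precision of low genes such as Rb1 in GMP. Floors cover counting error only, because amplified reads are not independent molecules.

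The members and gene lists were chosen with earlier results of these data known, from textbook knowledge of the E2F pathway. All members and the partner genes are named. Of each other list, the text may name up to 4 called genes with the smallest p in the list's main direction and 2 with the opposite sign, and for likeness 3 genes per member. A gene that this rule names is not reported here. Rcbtb2, 1810022K09Rik and Gm2788 are named for their overlap with members. Alternatives were DESeq2 size factors in edgeR, no filter, DESeq2 1.42.0, a replicate block, all 24 libraries in 1 fit and each library left out. Scripts were tested on simulated data. Exact permutations used numpy 2.4.6, tables pandas 2.3.3 and plots matplotlib 3.10.9.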

Additional observations from a re-analysis of the deposited data

Results flagged for a closer look

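In 7 of 50 combinations of a member and a group with 4 or 5 libraries, 1 library stood apart from the others by Dixon's test. Chance alone flags about 1 in 20 groups where values are normally distributed, which was not tested for these CPM. Every flagged library was the highest of its group. The share of flags over all genes was not computed, so 7 of 50 cannot be read as an excess. E2f1 was 151 CPM in fast GMP replicate 2, where the next library held 51.1. E2f2 was 0.567 CPM in slow MEF replicate 2, against 0.0961 in the next, and 350 CPM in fast GMP replicate 4, against 118. E2f5 stood apart in 3 groups, at 9.83 CPM in bulk MEF replicate 1 (next 1.81), at 30.2 CPM in iPS replicate 2 (next 6.21) and at 21.4 CPM in fast GMP replicate 5 (next 1.91). E2f7 was 20.7 CPM in fast GMP replicate 5, against 4.96. Fast GMP replicate 5 thus held the highest value of both E2f5 and E2f7. The cause was not tested.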

How the results depend on the processing

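The calls of E2f2 in fast against slow MEF, of E2f8 and Rbl1 in iPS against bulk MEF, of Rbl1 in fast against bulk MEF, of E2f4 in iPS against fast MEF and of E2f2 in fast GMP against fast MEF held under every alternative run. No batch is named in the labels, and low counts limit E2f2 in slow MEF, E2f5 throughout and Rb1 in GMP. Unless said otherwise, the cause of a change was not tested.

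With all 24 libraries in 1 fit, the genes called (and members) were 1246 (1) in fast against slow MEF, 3170 (2) in iPS against bulk MEF, 56 (0) in slow and 1513 (1) in fast against bulk MEF, 1675 (1) in iPS against fast MEF, 385 (0) in fast against slow GMP, 3135 (2) in fast GMP against fast MEF and 1069 (1) in the interaction. The main counts were 3726 (3), 5566 (4), 1181 (0), 3958 (2), 4568 (4), 0 (0), 1433 (1) and 193 (0). Members that lost their call there were E2f7 (adjusted p = 0.131) and Rb1 (0.171) in fast against slow MEF, E2f4 (0.0867) and E2f6 (0.252) in iPS against bulk MEF, Rb1 (0.155) in fast against bulk MEF, and E2f7 (0.512), E2f8 (0.0657) and Rb1 (0.0797) in iPS against fast MEF.

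DESeq2 called 5 members in fast against slow MEF (E2f8 and Rbl1 added), beside 4566 of 11742 genes. It called 1 member in slow against bulk MEF (1977 of 11253 genes), 3 in fast GMP against fast MEF (2691 of 10639 genes) and 2 in the interaction (1563 of 13814 genes). In fast against slow GMP it called 97 genes. E2f8 in fast against slow MEF also passed with DESeq2 size factors in edgeR (adjusted p = 0.0475), with the replicate block (0.0465) and without slow MEF replicate 3 (0.0213).

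Same-numbered libraries correlated by -0.0613 to 0.074 in their deviations from the group means, so the numbers were not taken to pair samples. The replicate block called 92 genes in the interaction. It turned the sign of uncalled folds of E2f1 in fast against slow MEF (-0.13), of E2f2 in iPS against fast MEF (-0.15) and in fast against slow GMP (-0.34), of Rbl1 in the latter (0.078), and of E2f3 in fast GMP against fast MEF (-0.52) and in the interaction (-0.22). E2f2 in fast against slow GMP also turned with DESeq2 size factors (-0.0071) and DESeq2 (-0.0069), and E2f6 in fast GMP against fast MEF without the filter (-0.13) and with 24 libraries (-0.19).

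Leaving out 1 library gave 759 to 998 genes in slow against bulk MEF, 1 to 2 members in fast against bulk MEF, 815 to 2298 genes and 1 to 2 members in fast GMP against fast MEF (2 without fast GMP replicate 1 or 4), and 82 to 575 genes and 0 to 2 members in the interaction (2 without fast GMP replicate 4). Without fast MEF replicate 3, iPS against fast MEF called 5 members, 2 higher and 3 lower in iPS, and 4903 of 12325 genes. Some uncalled log2 fold changes crossed 0, with these ranges. For E2f1 they were -0.61 to 0.51 in fast against slow MEF, -0.18 to 0.53 in iPS against bulk MEF, -0.061 to 1.13 in fast against bulk MEF, -1.01 to 0.12 in iPS against fast MEF and -0.13 to 1.27 in fast GMP against fast MEF. For E2f2 they were -0.23 to 0.78 in iPS against fast MEF and -0.61 to 1.32 in fast against slow GMP. For E2f3 they were -0.17 to 0.59 in slow against bulk MEF, -0.28 to 0.32 in iPS against fast MEF, -0.19 to 1.66 in fast against slow GMP, -0.23 to 0.78 in fast GMP against fast MEF and -0.66 to 1.34 in the interaction. E2f4 ranged from -1.25 to 0.073 in the interaction. E2f5 ranged from -1.78 to 0.39 in fast against slow MEF, from -0.92 to 1.99 in slow against bulk MEF and from -1.31 to 1.05 in fast against bulk MEF, and E2f6 from -0.70 to 0.48 in fast GMP against fast MEF. E2f7 ranged from -1.42 to 0.24 in iPS against bulk MEF, from -0.12 to 1.56 in fast against bulk MEF, from -0.76 to 7.07 in fast against slow GMP and from -3.96 to 5.33 in the interaction, both highest values without slow GMP replicate 2, the slow GMP library with counts of it. Rb1 ranged from -0.24 to 0.61 in slow against bulk MEF and from -0.97 to 0.67 in the interaction, and Rbl1 from -0.40 to 0.34 in fast against slow GMP.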
